A study of Mus musculus with 5 samples.

Results

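The proteasome genes of cultured mouse marrow stromal cells were followed from wild type to Bmal1-knockout cells. They were taken as all genes whose symbol begins with Psm, a letter from a to g and a number, leaving out symbols that end in -ps. This gave 50 of the 14161 genes listed in any library, of which 42 had counts in all 5 libraries. Of the 50, 5 form the immunoproteasome set (Psmb8, Psmb9, Psmb10, Psme1 and Psme2) and 45 are other genes. Total RNA was sequenced from mesenchymal stem cells, the adherent stromal cells of bone marrow, grown from the femurs of C57BL/6 mice aged 6 to 8 weeks and taken at passages 1 to 3. One group was 3 libraries labelled Bmal1-knockout and the other 2 libraries labelled Wild Type; the labels name no treatment, and no source used here says which part of the gene was deleted. The labels do not say whether the libraries of a group came from separate animals or cultures, so the p-values measure the spread between these libraries, which may be technical.

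The proteasome is the barrel-shaped protease that degrades proteins tagged with ubiquitin. Its 20S core stacks rings of alpha subunits, which form the gate, on rings of beta subunits, of which Psmb5, Psmb6 and Psmb7 encode the catalytic ones. A 19S cap of ATPases and non-ATPase subunits binds, unfolds and feeds the substrate. In immune cells, and in other cells exposed to interferon, Psmb8, Psmb9 and Psmb10 encode catalytic subunits that replace those of Psmb5, Psmb6 and Psmb7, and Psme1 and Psme2 encode the PA28 activator; the resulting immunoproteasome makes peptides for presentation on MHC class I molecules. Bmal1 (gene symbol Arntl) encodes the clock factor that pairs with CLOCK and binds E-box DNA.

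Depth was low. The libraries held 226695, 237088 and 281990 expected counts (knockout) and 243072 and 211623 (wild type), and the 50 genes together drew 0.179% to 0.224% of them. Levels are given as CPM, counts per 1e6 counts of the scaled total of the tested genes, and a count of 0 allowed up to 12.1 to 15.9 CPM. Arntl had 4, 1 and 2 counts (knockout) against 5 and 0 (wild type), which does not check the labels. Markers of marrow stroma (Col3a1, a fibril collagen, at 3679 CPM over all libraries) and of macrophages (Lyz2, their lysozyme, at 8380 CPM) were both abundant. Of the surface proteins often used to define mesenchymal stem cells, Thy1 was at 0 to 3 counts a library, Nt5e at 3 to 6 and Eng at 4 to 8. Other stromal surface genes were higher, with Ly6a at 9 to 24 counts a library, Pdgfra at 12 to 25 and Vcam1 at 7 to 23.

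Of the 50 genes, 26 had enough counts to be tested and 1 passed: Psmb8, encoding the immune subunit that takes the place of the Psmb5 product, was lower in the knockout. No member was higher at an adjusted p under 0.05 (edgeR quasi-likelihood test, Benjamini-Hochberg over all 3710 tested genes). The share called among the 26 was 3.85%, against 16.3% of all tested genes (8.14% lower and 8.19% higher), so the members as a group were not called more often than other genes. At an unadjusted p under 0.05 the members' count was also 1, against 27.6% of all tested genes. The median log2 fold change was -0.10 over the 26 members and 0.01 over all tested genes. Fold changes are knockout against wild type throughout. At 3 to 36 counts per gene and library the standard error of a member's log2 fold change was 0.31 to 0.59, and 6 of the 26 members had a 95% interval lying within 1 log2 unit (a 2-fold change) on both sides of 0. The other 20 intervals reached past a 2-fold change in at least 1 direction.

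**Figure D1:**
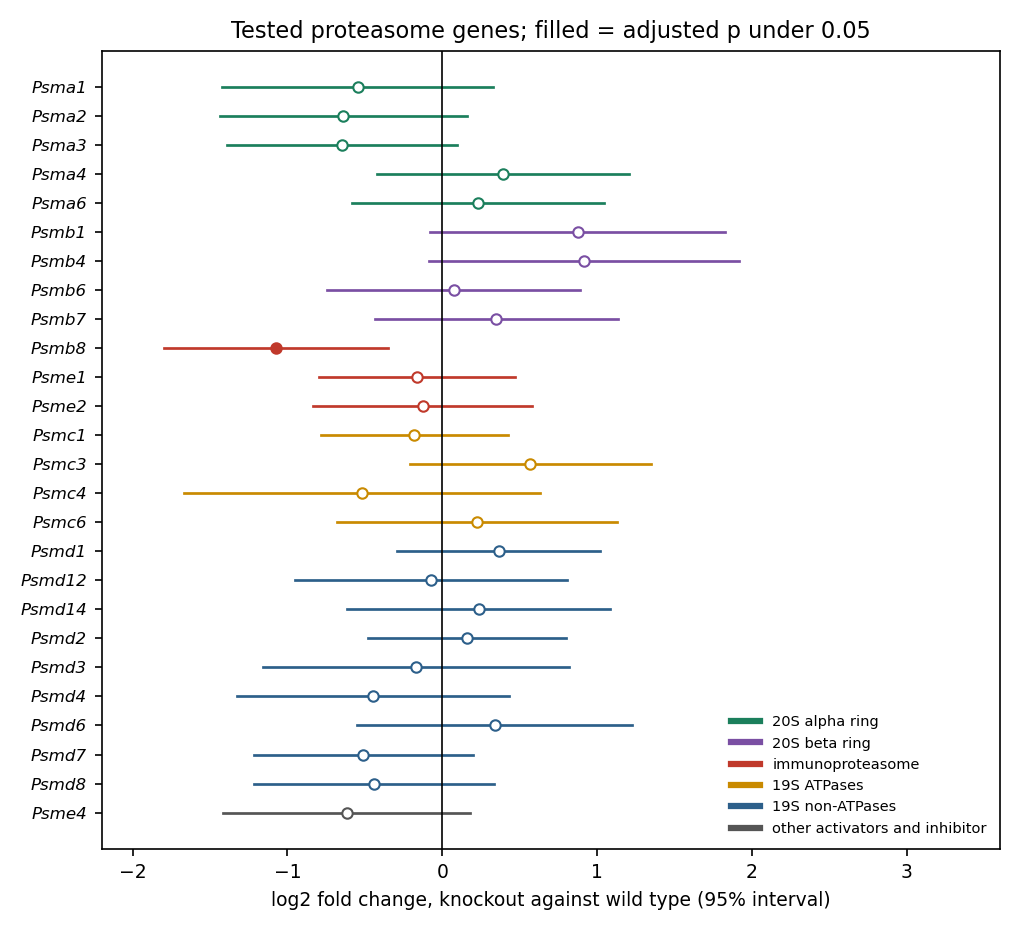
Log2 fold change, knockout against wild type, of the 26 tested proteasome genes (points) with 95% intervals (lines), coloured by subunit class and filled where the adjusted p was under 0.05. Psmb8 at -1.07 is the filled point, and the other 25 intervals include 0.

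Psmb8 (Entrez gene 16913, chromosome 17, 34198195 to 34201454, plus strand, mm10) had 9, 11 and 17 counts (knockout) against 24 and 23 (wild type). As levels these were 43.2, 52.3 and 68.8 CPM against 112.8 and 122.2 CPM. The 3 knockout values lay below both wild type values. The group means were 54.8 ± 13.0 CPM (SD, n = 3) and 117.5 ± 6.71 (n = 2), a log2 fold change of -1.07 (SE 0.37, edgeR adjusted p = 0.0268), or 2.11-fold lower with a 95% interval of 1.28 to 3.48. The adjusted p rested on all but 1 of the libraries. The call was lost without knockout 1 (-0.93, adjusted p = 0.103), knockout 2 (-1.03, adjusted p = 0.081), wild type 1 (-1.15, adjusted p = 0.128) or wild type 2 (-1.02, adjusted p = 0.188), and with DESeq2 (adjusted p = 0.16) or no filter on low counts (-1.05, adjusted p = 0.111). Over 16 alternatives its value ran from -1.29 to -0.93 and its adjusted p from 0.0209 to 0.188. In the GENCODE annotation 498 of its exon bases lie opposite exons of Gm20496, which is not among the genes listed in these tables; no source used here states whether counting used strand, so reads of the 2 genes cannot be told apart.

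Macrophages carry the immunoproteasome without induction, and their markers moved in the same libraries. The 20 macrophage genes summed to 12100, 10850 and 11320 CPM (knockout) against 17820 and 17430 (wild type). Of the 19 tested, 9 were called lower and none higher (median log2 fold change -0.55). In all, 18 values were below 0 and 1, that of Mrc1, was above (0.18, not called). The 14 stromal genes summed to 13850, 13160 and 12960 CPM against 5130 and 5092. Of the 10 tested, 5 rose and none fell by the test (median log2 fold change 1.07). Among all tested genes 8.14% were called lower and 8.19% higher. The sum is mostly the 5 that rose, the matrix genes Col1a1, Col1a2, Col3a1 and Sparc and the chemokine gene Cxcl12. Of the tested receptor and surface genes in the list, Pdgfra was at -0.34, Ly6a at -0.22, Pdgfrb at 0.15 and Vcam1 at 0.82. None of them passed, and Vcam1, at 72.1, 71.3 and 93.1 CPM against 51.7 and 37.2, did not overlap between the groups. The highest markers were Lyz2 (log2 fold change -0.67) and Ctss, a lysosomal protease (-0.86), and the collagens Col3a1 (1.38) and Col1a2 (1.51). Psmb8 was at 3.57, 4.82 and 6.08 CPM per 1000 CPM of macrophage markers (knockout) against 6.33 and 7.01 (wild type). The nearest values, 6.08 in knockout 3 and 6.33 in wild type 1, were close and rested on 17 and 24 counts of Psmb8. Most of the marker sum is Lyz2, at a mean of 6789 of 11430 CPM (knockout) and 10770 of 17630 CPM (wild type). In CPM, 42.7% of all tested genes had groups that did not overlap. In bulk RNA, fewer cells of a type and less RNA per cell cannot be told apart, and the part of the macrophage signal in the Psmb8 result was not tested. Of 6 endothelial genes 2 were tested and none passed, and 3 of 4 dendritic genes were at 0. Of the blood-cell markers, the 3 erythroid genes were at 0 in all libraries, 4 of 5 neutrophil genes were at 0, the T and NK genes summed to 31.9 to 37.6 CPM and the B cell genes to 5.32 to 33.6 CPM.

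Psmb9 and Psmb10, the other catalytic immune subunits, were too low to test. Psmb9 (chromosome 17, 34182030 to 34187330) had 2, 3 and 6 counts (knockout) against 7 and 2 (wild type). Psmb10 (chromosome 8, 105935728 to 105938392) had 7, 4 and 3 against 6 and 8. The groups overlapped for both. The knockout to wild type ratio of summed counts was 0.736 for Psmb9 and 0.602 for Psmb10, with exact Poisson intervals (95%, counting error only) of 0.277 to 2.01 and 0.266 to 1.36, so neither a 2-fold fall nor equal levels is outside them.

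**Figure D2:**
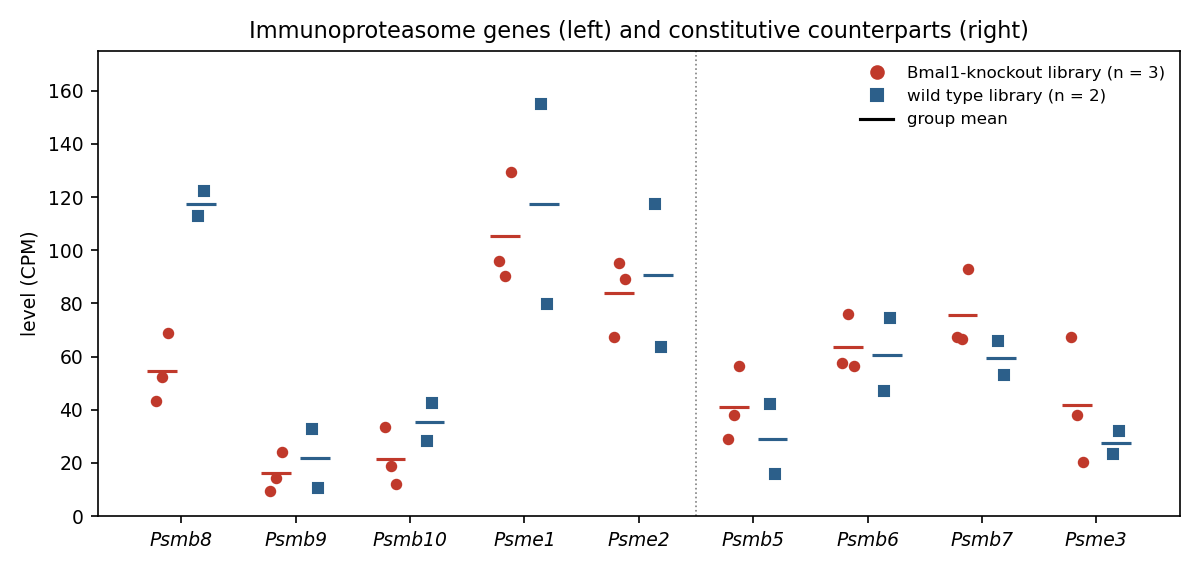
Level in CPM of the 5 immunoproteasome genes and of the constitutive counterparts Psmb5, Psmb6, Psmb7 and Psme3, with 1 point per library and a line at each group mean. Psmb8 is the gene of the 9 shown whose knockout values (43.2 to 68.8 CPM) lie wholly below the wild type values (112.8 and 122.2 CPM).

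The regulatory sequence of the exchanged pair Psmb8 and Psmb5 is shown because their ratio separates the groups, together with that of Psmb10, the immune subunit gene whose start holds an E-box. Each is the 250 bases before the start site in RefSeq (build GRCm38.p6, the mm10 coordinates), 5′ to 3′ on the gene's strand. Capitals mark matches to 4 motifs searched on both strands: the E-box CACGTG of BMAL1 and CLOCK, the IRF element of interferon regulatory factors (GAAA, a gap of 2 bases, GAAA), the GAS element TTCNNNGAA (the interferon-gamma activated site), and TGACNNNGC, the core of the antioxidant element that NRF factors bind. The E-box and the GAS element read the same on both strands, and each of these windows held a single match.
Psmb8, chr17:34197945-34198194, plus strand: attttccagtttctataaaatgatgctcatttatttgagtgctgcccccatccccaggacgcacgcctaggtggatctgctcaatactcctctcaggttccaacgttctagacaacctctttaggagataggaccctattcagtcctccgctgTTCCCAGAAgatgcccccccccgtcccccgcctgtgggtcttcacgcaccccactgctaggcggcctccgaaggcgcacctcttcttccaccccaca
Psmb5, chr14:54617996-54618245, minus strand: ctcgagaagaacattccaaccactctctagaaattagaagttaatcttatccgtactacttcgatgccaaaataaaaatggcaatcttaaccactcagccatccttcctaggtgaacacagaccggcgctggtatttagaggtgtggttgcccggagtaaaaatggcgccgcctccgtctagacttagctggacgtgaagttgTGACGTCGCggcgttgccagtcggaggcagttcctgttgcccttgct
Psmb10, chr8:105938393-105938642, minus strand: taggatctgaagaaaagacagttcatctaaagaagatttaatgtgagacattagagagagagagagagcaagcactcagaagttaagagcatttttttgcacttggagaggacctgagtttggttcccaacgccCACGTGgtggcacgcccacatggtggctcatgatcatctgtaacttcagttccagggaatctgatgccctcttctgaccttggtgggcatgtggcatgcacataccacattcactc

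The window of Psmb8 held a GAS match (TTCCCAGAA, starting 97 bases before the start site), that of Psmb5 an antioxidant element match (TGACGTCGC, 47 bases before) and that of Psmb10 an E-box (116 bases before). Promoter windows of 300 bases, 50 of them past the start site, were found for 42 of the 50 genes. An E-box was in those of 4 of the 42 (9.52%), Psma4, Psmb10, Psmd9 and Psme3, against 7.15% of all 32851 windows. The IRF element was in 5 (11.9% against 3.44%), among them Psme1, the GAS element in 3 (7.14% against 8.3%) and the antioxidant core in 6 (14.3% against 12.4%), among them Psmb5 and Psmb6. Of the 4 genes with an E-box, Psma4 was tested and did not pass (log2 fold change 0.39, edgeR adjusted p = 0.585), and the summed-count ratios of Psmb10, Psmd9 (1.96) and Psme3 (1.48) had intervals that include 1. A match is a description of the letters in the window and not a binding site.

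The balance between immune and constitutive catalytic subunits was read per library from the authors' FPKM values, which divide by gene length and so allow levels of different genes to be compared. Psmb8 stood at 1.02, 0.957 and 0.815 times the FPKM of Psmb5 in the knockout against 1.81 and 5.19 times in the wild type. The groups did not overlap, which in CPM held for 42.7% of all tested genes. The 2 wild type values were far apart, with Psmb5 at 8.97 counts in wild type 1 and 3 in wild type 2. The mean log2 ratio was -0.11 ± 0.16 (SD, n = 3) against 1.62 ± 1.07 (n = 2), a difference of -1.73 that was -2.49 without wild type 1 and -0.97 without wild type 2. Psmb9 to Psmb6 ran from 0.224 to 0.575 in the knockout against 0.94 and 0.192, and Psmb10 to Psmb7 from 0.0959 to 0.368 against 0.315 and 0.588. Both of these pairs overlapped between the groups, and the mean difference for Psmb9 to Psmb6 changed sign without wild type 1 (from -0.41 to 0.73).

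Over the 6 genes of these pairs, the immune forms held 31.3%, 28.6% and 30.4% of the summed FPKM in the knockout, against 48.5% and 49.7% for the wild type pair. The mean difference, knockout minus wild type, was -19.0 percentage points, more than the spread within either group (30.1% ± 1.35 and 49.1% ± 0.797, SD). With Psmb8 and Psmb5 left out it was 23.3%, 18.8% and 21.2% against 36.0% and 26.7%, again without overlap but on 7 to 9 summed counts of Psmb9 and Psmb10 per knockout library and 13 and 10 in the wild type. These shares were computed after the gene values were seen and carry no test. The share over 6 genes includes Psmb8, so it is not separate from the Psmb8 result. In CPM, 42.7% of all tested genes also had groups that did not overlap.

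**Figure D3:**
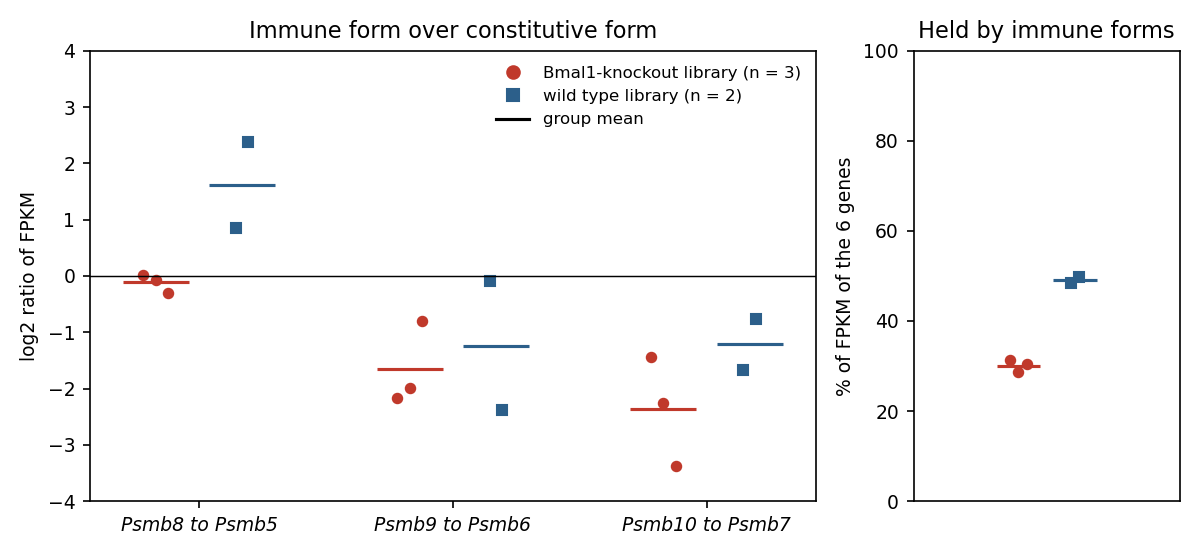
Left, log2 ratio of the FPKM of each immune catalytic subunit gene to its constitutive counterpart, 1 point per library with group means as lines. Right, percent of the FPKM of the 6 genes held by the immune forms, at 28.6% to 31.3% in the 3 knockout libraries and at 48.5% and 49.7% in the others.

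The PA28 activator genes were the highest of the set and did not pass the test. Psme1 (chromosome 14, 55578494 to 55581527) had 20, 19 and 32 counts (knockout) against 33 and 15 (wild type), a log2 fold change of -0.16 (95% interval -0.79 to 0.47, edgeR adjusted p = 0.792). Psme2 (chromosome 14, 55587440 to 55591101) had 14.48, 19.88 and 21.65 against 25 and 12, a log2 fold change of -0.13 (-0.83 to 0.58, edgeR adjusted p = 0.865). In both, wild type 1 was the highest and wild type 2 the lowest library, and without wild type 1 the value turned positive, to 0.39 and 0.38; Psme2 was also at 0.01 without knockout 1. For Psme1 and Psme2 the intervals exclude a 2-fold fall; whether they differ from Psmb8 was not tested. The 5 immunoproteasome genes together summed to 249.8, 271.0 and 323.7 CPM (knockout) against 446.3 and 318.9 (wild type), which overlapped.

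Psme2 shares reads with Psme2b, a copy with 1 exon on chromosome 11 (48945345 to 48946410) whose GENCODE transcript is 99.4% identical to a Psme2 transcript over 794 aligned positions. Psme2b was listed in the 3 knockout libraries, at 2.52, 3.12 and 1.35 expected counts, and at 0 in both wild type libraries. In each knockout library the fractions of Psme2 and Psme2b add up to a whole number (17, 23 and 23), and in the wild type libraries all 25 and 12 were given to Psme2. Summed, the pair had a log2 fold change of 0.04 (SE 0.35, edgeR adjusted p = 0.948). Reads of the 2 genes cannot be told apart here, and the direction of Psme2 changed with the sum.

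Psmb8 and Psmb9 lie in the MHC region of chromosome 17, interleaved with Tap1 and Tap2, which encode the transporter that carries proteasome products to class I molecules. The RefSeq order along the chromosome is Psmb9, Tap1, Psmb8 and Tap2, from 34182030 to 34216321. Tap1 had 18, 9 and 21 counts (knockout) against 10 and 12 (wild type; log2 fold change 0.38, edgeR adjusted p = 0.592), and Tap2 had 14, 8 and 13 against 12 and 7 (0.15, edgeR adjusted p = 0.872). Neither passed and both overlapped between the groups, while Psmb8, lying between them, was lower in each knockout library. The difference between Psmb8 and its neighbours was not tested. Of Tap1, 212 exon bases lie opposite Psmb9, and of Tap2, 698 lie opposite Gm15821 and Gm20496. Gm20496 is also the gene opposite Psmb8.

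The alpha ring genes, Psma1 to Psma7, showed no shared direction. Of the 7, 5 were tested and none passed; 3 values were below 0 and 2 above (median -0.55). Psma3 had the smallest p of the class, with 8, 23 and 9 counts (knockout) against 18 and 20 (wild type). Knockout 2 stood with the wild type libraries, and the log2 fold change of -0.65 (edgeR adjusted p = 0.26) became -1.32 (adjusted p = 0.0379) without it. Psma2 had 13, 7 and 14 against 18 and 14, or 62.5, 33.3 and 56.7 CPM against 84.6 and 74.4, which did not overlap, with a log2 fold change of -0.64 (edgeR adjusted p = 0.31). Psma1, Psma4 and Psma6 lay at -0.55, 0.39 and 0.23; Psma1 turned to 0.39 without wild type 1 and Psma4 to -0.16 without wild type 2. Psma5 (9, 13 and 9 counts against 9 and 8) and Psma7 (9, 9 and 12 against 8 and 3) were too low to test. The class summed to 365.1, 418.3 and 372.2 CPM (knockout) against 474.5 and 356.1 (wild type), with overlap.

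None of the constitutive beta ring genes passed. Of Psmb1 to Psmb7, 4 were tested, all 4 with values above 0 (median 0.61). Psmb4, a structural beta subunit, had 11, 12 and 15 counts (knockout) against 6 and 6 (wild type), or 56.9 ± 3.92 CPM (SD, n = 3) against 30.0 ± 2.62 (n = 2). Its groups did not overlap, and its log2 fold change was 0.92 (95% interval -0.09 to 1.92, edgeR adjusted p = 0.231). Psmb1, another structural subunit, had 17, 9 and 14 counts against 4 and 9, at 0.87 (edgeR adjusted p = 0.228); its value was 0.31 without wild type 1 and 1.64 without wild type 2. The catalytic subunit genes lay nearer to 0. Psmb7, of trypsin-like activity, was at 0.35 (edgeR adjusted p = 0.614) with 405 exon bases opposite Nek6, and Psmb6, of caspase-like activity, at 0.07 (edgeR adjusted p = 0.928), with a sign that changed without knockout 2 (-0.06) or wild type 1 (-0.25). Psmb5, of chymotrypsin-like activity, had 6, 7.78 and 14.12 counts against 8.97 and 3 and was too low to test, as were Psmb2 (21 against 12 summed counts) and Psmb3 (30 against 13). The class summed to 350.7, 361.3 and 408.7 CPM (knockout) against 249.0 and 303.0 CPM (wild type), the knockout mean being 1.35 times the wild type mean without overlap. Across all tested genes 42.7% had groups that did not overlap. The same held for 6 of the 26 tested members, 3 lower (Psmb8, Psma2 and Psmd8) and 3 higher (Psmb4, Psmb7 and Psmc6). Of the members too low to test, Psma7, Psmb3, Psmc2, Psmd5, Psmd9, Psmd11, Psmd13 and Psme2b also did not overlap, each higher in the knockout. No untested member was lower without overlap, and the Poisson intervals of these ratios all include 1.

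**Figure D4:**
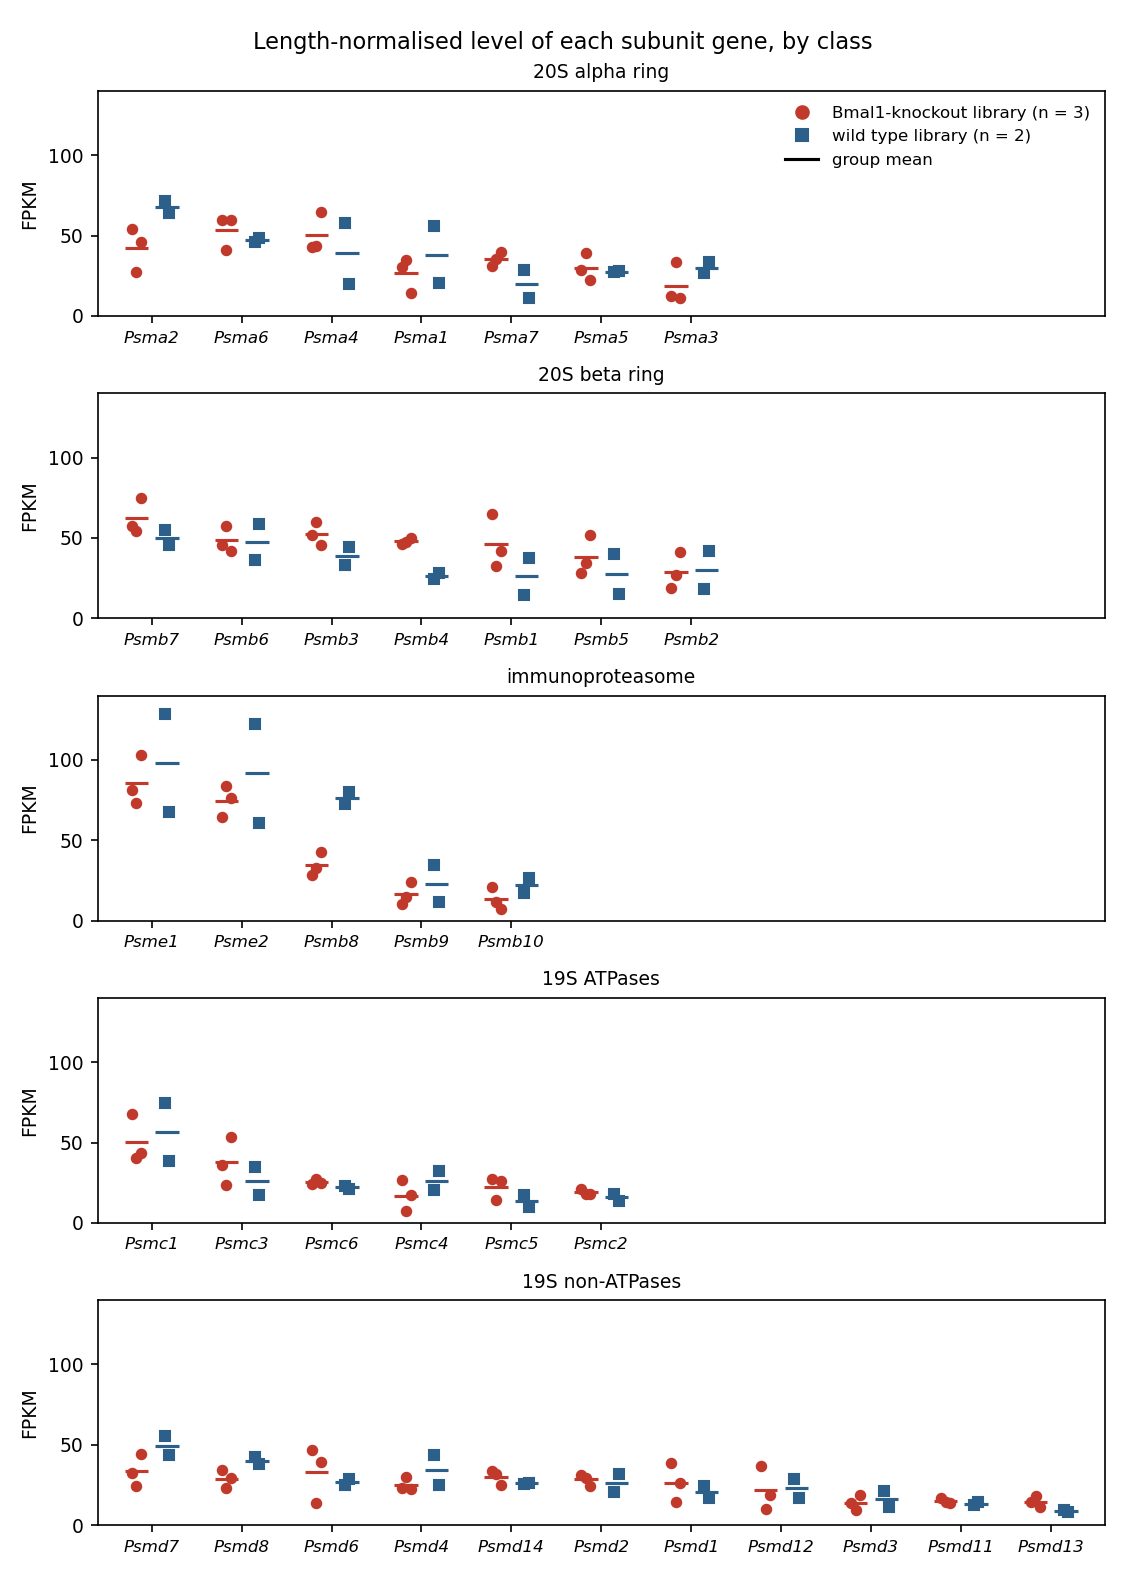
Length-normalised level (FPKM) of each core, immune and 19S subunit gene, sorted by mean within its class, with 1 point per library and a line at each group mean. Psme1 and Psme2 reach the highest means (90.8 and 81.5 FPKM), and Psmb8 averages 34.5 FPKM in the knockout and 76.2 in the wild type.

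Per length, genes of subunits that are present in equal number in the particle were not listed at equal level. Over all 5 libraries the alpha ring genes averaged from 23.3 FPKM (Psma3) to 52.5 (Psma2), and the constitutive beta ring genes from 29.3 (Psmb2) to 57.5 (Psmb7). The order depends on the listed gene length. Psma3, listed at up to 2374 bases, had the highest CPM of the alpha ring (75.0), and Psma2, at 963 bases, had 62.3. Neighbours at the top of the beta order overlapped, as Psmb7 spanned 45.3 to 74.8 FPKM over the libraries and the next gene, Psmb6, 36.5 to 58.8. The 19S ATPase genes had a median of 22.3 FPKM, the 19S non-ATPase genes 27.5, the alpha ring 31.2 and the constitutive beta ring 39.2. Psmb8 averaged 34.5 FPKM in the knockout and 76.2 in the wild type, where it stood above each constitutive beta gene; Psmb9 and Psmb10 averaged 18.9 and 16.8 over all libraries.

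The 19S cap was without a called gene. Of its 6 ATPases, the ring that unfolds substrates, 4 were tested. Psmc1 had the highest level, with 30, 22 and 25 counts (knockout) against 36 and 17 (wild type; log2 fold change -0.18, edgeR adjusted p = 0.757; 0.34 without wild type 1). Psmc3 was at 0.57 (edgeR adjusted p = 0.362; 215 exon bases opposite Slc39a13), Psmc6 at 0.23 and Psmc4 at -0.52. Psmc2 (30 against 15 summed counts) and Psmc5 (25 against 9) were too low to test. The class summed to 408.4, 294.7 and 400.6 CPM (knockout) against 399.3 and 276.4 (wild type), and the spread within each group was larger than the gap between the means.

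Among the 11 non-ATPase genes, 9 were tested, 4 with values above 0 and 5 below (median -0.07). Psmd7, a scaffold of the deubiquitinating lid, had 14, 11 and 24 counts in the knockout against 25 and 17 and the smallest p (log2 fold change -0.51, edgeR adjusted p = 0.367). Its partner Psmd14, the deubiquitinase of the lid, had 14, 14 and 13 against 11 and 10, at 0.23 (edgeR adjusted p = 0.777). Psmd2, a large base subunit that docks ubiquitin receptors, had 26, 26 and 26 counts against 18 and 24 (0.16, 95% interval -0.48 to 0.80). Psmd1, the other large base subunit, was at 0.37, with 35, 14 and 30 counts against 23 and 14, and Psmd4, the ubiquitin receptor, was at -0.45 (0.02 without wild type 1). Psmd3, Psmd6, Psmd8 and Psmd12 lay between -0.44 and 0.34, and Psmd11 (23 against 12 summed counts) and Psmd13 (20 against 7 summed counts, 342 exon bases opposite Sirt3) were too low to test. Psmd12 changed sign without knockout 2 (0.25), knockout 3 (0.01) or wild type 1 (0.39), and Psmd3 without knockout 2 (0.04) or wild type 1 (0.37). The class summed to 797.5, 556.2 and 704.0 CPM (knockout) against 737.6 and 627.2 (wild type), a ratio of means of 1.01.

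The remaining genes were mostly near the limit of detection. Psme4, encoding the nuclear activator PA200, was tested, with 11, 18 and 5 counts (knockout) against 22 and 10 (wild type; log2 fold change -0.62, edgeR adjusted p = 0.324). Psme3, encoding the nuclear activator PA28 gamma, had 14, 8 and 5 counts against 5 and 6. Psmf1, encoding the inhibitor PI31, had 7 summed counts against 3. The chaperones of 19S assembly, Psmd5, Psmd9 and Psmd10, had 11, 13 and 14 summed knockout counts against 4, 4 and 5, and 1849 exon bases of Psmd9 lie opposite Gm26745. All 3 ratios were above 1 (1.66, 1.96 and 1.69) with intervals that include 1. The 3 genes together reached 76.9, 47.5 and 48.5 CPM (knockout) against 37.6 and 26.6 (wild type), which did not overlap. These sums rested on 16, 10 and 12 counts against 8 and 5, and 42.7% of all tested genes likewise had groups that did not overlap. The chaperones of 20S assembly, Psmg1 to Psmg4, had 7, 4, 3 and 2 summed counts against 3, 1, 2 and 1. Psma8, the testis alpha subunit, had 1 count in all and Psmb11, the thymus beta subunit, 2. Psmc3ip, with 2 counts, bears a proteasome symbol by name and encodes a meiotic recombination factor. For the 24 genes too low to test, the exact Poisson interval of the ratio included 1 in each.

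Genes that work with the proteasome were counted from lists of the pathway. Of 24 symbols of partners (receptors, deubiquitinases, assembly and transcription factors; Sem1 is listed as Shfm1 and Ecpas as AI314180) 21 were listed and 13 tested, and none passed (median 0.15). Pomp, the chaperone that completes the core, was at -0.25 and Shfm1, the small lid subunit SEM1, at -0.10, and both changed sign with a library left out (0.56 without wild type 1, 0.06 without knockout 2). Nfe2l1, the factor NRF1 that raises proteasome genes when the protease is inhibited, was at -0.07 (0.19 without wild type 1). Nfe2l2, encoding NRF2, had the smallest p, with 13, 8 and 19 counts against 23 and 22 (log2 fold change -0.90, edgeR adjusted p = 0.0739), followed by Ecpas, a proteasome adaptor (-0.99, edgeR adjusted p = 0.0765).

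Ddi2 was outside the main test and was singled out after its values were seen. It encodes the protease that cleaves NRF1 into its active form. It had 0, 1 and 0 counts (knockout) against 12 and 7.34 (wild type; chromosome 4, 141683563 to 141723419). The ratio of summed counts was 0.0317, with an exact Poisson interval from 0.000763 up to 0.199 (95%, counting error only). Rsc1a1 lies inside Ddi2 (141683563 to 141685716) and had 3, 0 and 2 counts against 0 and 0.66, so reads can be placed on either gene. The 2 genes together had 3, 1 and 2 counts against 12 and 8, or 0.181 times the wild type level (interval 0.0594 to 0.467). The groups still did not overlap, which in CPM held for 42.7% of all tested genes. With a minimum count of 5 in the filter, Ddi2 without Rsc1a1 was tested (log2 fold change -4.51, edgeR adjusted p = 0.000844).

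Downstream of the proteasome, 3 of the 13 tested genes of class I antigen processing fell and 2 rose. B2m, the light chain of class I molecules, had 190, 157 and 222 counts (knockout) against 294 and 204 (wild type; log2 fold change -0.53, edgeR adjusted p = 0.000546; -0.36 and not called without wild type 1). H2-K1, a class I heavy chain, was at -0.57 (edgeR adjusted p = 0.00104; not called without wild type 2, -0.56), and H2-D1, another, at -0.48 (edgeR adjusted p = 0.00752). The counts of H2-K1 and H2-D1 are not whole numbers, and related heavy chain genes can share reads. The 2 that rose were chaperones of the endoplasmic reticulum with wider roles, Pdia3 (0.48, edgeR adjusted p = 0.0263) and Calr (0.38, edgeR adjusted p = 0.0399); Pdia3 lost its call in 7 and Calr in 10 of 16 alternatives, and the values stayed between 0.33 and 0.55. The list's median was -0.34, and 38.5% of its tested genes were called, against 16.3% of all tested genes. The share called lower was 23.1%, against 8.14% of all tested genes.

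Of 17 interferon signalling genes 13 were tested and none rose (median -0.40). Of the 13, 2 (15.4%) were called, both lower. Among all tested genes 8.14% were called lower and 16.3% in either direction. Irf7, a factor of the type I response, had 27, 12 and 31 counts against 52 and 40 and fell (-1.12, edgeR adjusted p = 0.000705); it did not pass when wild type 1 was left out (-1.03, adjusted p = 0.0553). Irf1, a known activator of the immunoproteasome genes, had 14, 11 and 14 against 18 and 16 and did not pass (-0.53, edgeR adjusted p = 0.39; 135 exon bases opposite Gm17334). Irf7, Irf1, the macrophage markers and Psmb8 were lower in the same libraries, and with 5 libraries in 2 groups they cannot be told apart.

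**Figure D5:**
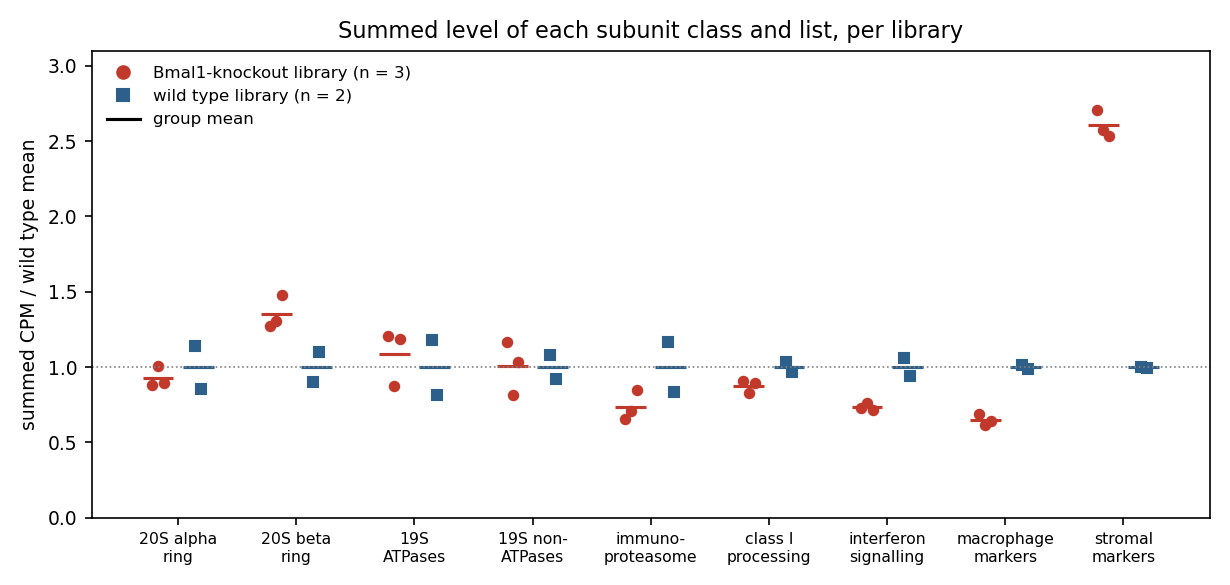
Summed CPM of each subunit class and of 4 gene lists in each library, divided by the wild type mean, with group means as lines. The macrophage markers (10850 to 12100 against 17430 and 17820 CPM) and stromal markers (12960 to 13850 against 5092 and 5130) each separate the groups, while the alpha ring, ATPase and non-ATPase sums overlap.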

How the data were processed

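Total RNA of 3 Bmal1-knockout and 2 wild type libraries was sequenced. The authors deposited a table for each library that gives every listed gene its expected count, its FPKM and its length in bases, per the file headers. Per the submitters' processing notes the build was mm10 and the tools included RSEM, Bowtie2, HISAT2 and StringTie, with no role or version given. Expected counts were rounded, and genes absent from a table were set to 0 there; 93.8% to 94.2% of listed counts were whole within 0.005.

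Knockout and wild type were compared with edgeR 4.0.16 in R 4.3.3: filterByExpr (minimum count 10, minimum total 15), TMM, robust quasi-likelihood fits, and Benjamini-Hochberg adjustment over 3710 tested genes at 0.05. Standard errors come from the quasi-likelihood F. Genes too low to test have exact Poisson intervals, made with scipy 1.17.1; limits for a count of 0 are 3 counts. The fit was tested on simulated data. Replicate pairs differed by more than sampling noise (chi-square per degree of freedom 1.38 to 1.63), so all were kept. Exon overlaps come from GENCODE M21 and promoters from RefSeq.

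The members, subunit classes, pathway lists and motifs were chosen with earlier results of these data known. Named genes are the immune set and its counterparts, each class's highest member and smallest p, called genes, members too low to test, up to 2 called genes per direction of each pathway list, and the 2 highest macrophage and stromal markers. Tap1, Tap2, Pomp, Shfm1, Nfe2l1, Irf1, H2-D1, Thy1, Nt5e, other stromal markers, Ecpas, Ddi2, Rsc1a1 and further members were added for their role. Alternatives were other scalings, DESeq2 1.42.0, limma 3.58.1 (voom), other filters, truncated counts, a non-robust fit, the replicate number as a block and each library left out. The planned comparison of protein sequences, the list of ubiquitin genes and some results of the interferon list are not reported here.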

Additional observations from a re-analysis of the deposited data

How the results depend on the processing

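At this depth 24 of the 50 genes could not be tested, and intervals cover counting error or the spread of 5 libraries only. Over 410 alternative values of the 26 tested members, 386 kept their direction and their side of the threshold, 17 changed sign, 6 (all Psmb8) lost the call and 1 (Psma3) gained it; the cause was not tested. DESeq2 called 172 genes higher and 134 lower in all, and 0 proteasome genes, as did the fit with no filter on low counts (0 lower, in the immunoproteasome likewise). With a library left out, all genes higher ran from 144 to 323 and lower from 146 to 287, and lower proteasome and immunoproteasome genes from 0 to 1.

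Leaving out a library gave log2 fold changes from -0.25 to 0.42 for Psmb6, -0.55 to 0.34 for Psmc1, -0.783 to 0.019 for Psmd4, -0.55 to 0.39 for Psme1, -0.48 to 0.38 for Psme2, -0.14 to 0.47 for Psmd2, -0.54 to 0.37 for Psmd3, -1.07 to 0.39 for Psma1, -0.16 to 1.40 for Psma4 and -0.41 to 0.39 for Psmd12. Outside the members it gave -0.10 to 0.47 for Tap2, -0.29 to 0.19 for Nfe2l1, -0.73 to 0.56 for Pomp and -0.283 to 0.058 for Shfm1. Psme2 summed with Psme2b was at 0.044. The difference in log2 ratio ran from -2.49 to -0.97 for Psmb8 to Psmb5 and from -1.56 to 0.73 for Psmb9 to Psmb6, and that of the alpha ring sum from -0.30 to 0.11.

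Groups share replicate numbers, which the labels do not tie to a shared animal or day. Between same-numbered libraries, the deviations of genes from their group means correlated at -0.00758 (number 1) and 0.0262 (number 2). With 2 wild type libraries the deviations of that group are equal and opposite, so the check cannot settle a pairing. With the replicate block 229 genes were higher and 212 lower, Psmb8 was still called (-1.29, edgeR adjusted p = 0.0358) and Psmd12 was at 0.003.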
